A study of Mus musculus with 36 samples.

Results

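Cytochrome c oxidase, or complex IV, is the last enzyme of the mitochondrial respiratory chain. Its tissue isoform pairs were followed here through the life of the mouse heart. The members were 8 of the 20701 genes annotated on the array, Cox4i1, Cox4i2, Cox6a1, Cox6a2, Cox7a1, Cox7a2, Cox8a and Cox8b. They were taken by gene symbol with every probe set that carries it, which gave 13 of its 45101 probe sets. A probe set is a group of short probes that reads 1 transcript, and its values are log2 intensities from robust multi-array average (RMA). A probe set was called expressed from a stage mean above 5 in at least 1 of the 12 stages. That held for 11 of the 13, and the other 2, the probe set of Cox4i2 and the Cox8a probe set 1436409_at, stayed below it at every stage. Where a gene had several probe sets, the one with the highest mean over all arrays was read for the gene and the others are given beside it.

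The arrays came from hearts of OF1 mice, an outbred strain, and the labels name no genetic change or treatment in any group. There were 12 stages with 3 arrays each, 36 in all. They covered each embryonic day between E10.5 and E19.5, young adults of 10 weeks and old adults, whose age is 14 months in the series' description and younger in the study's methods. The 3 arrays at E10.5 and at E11.5 were all of mixed sex, while later stages had a female, a male and a mixed array, the mixed ones holding hearts of both sexes. The methods call the 3 tubes of a stage biological replicates without giving the number of hearts in a mixed tube, and p-values measure the spread between these samples. The extraction protocol in the labels names liver, whereas the titles and the methods name heart. The 8 measured cardiomyocyte markers had a mean level of 11.46 to 12.27 on every array, whereas the 5 liver markers had a mean level of 3.22 to 3.90 and none of them a stage mean above 5.

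The core of complex IV is made by mitochondrial genes and carries electrons from cytochrome c to oxygen while protons are pumped. Small subunits encoded in the nucleus surround this core, and some of them exist as pairs of genes of which 1 is used in nearly all tissues and the other in heart and skeletal muscle. Cox6a2, Cox7a1 and Cox8b are the heart-type (muscle) isoforms, and Cox6a1, Cox7a2 and Cox8a are their ubiquitous counterparts. The Cox4 pair differs, because Cox4i1 is the isoform of most tissues, the heart included, and Cox4i2 is known from lung and from oxygen-sensing and contractile cells of vessels. The heart changes from a mostly glycolytic organ in the embryo to an oxidative organ after birth, and the replacement of ubiquitous by muscle isoforms is a known part of muscle maturation.

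The sequences before the gene starts are shown because the heart-type and ubiquitous genes described below followed different courses. Those with a promoter found also differ in their number of CG dinucleotides. RefSeq promoters (build GRCm38.p6) were found for 5 of the 8 genes: Cox6a1, Cox7a1, Cox7a2, Cox8a and Cox8b. Printed are the 250 bases before the start of 4 of them, each 5′ to 3′ on the gene's strand, with every CG in capitals. Cox8b lies on the minus strand at chr7:140900447-140900696, Cox7a1 on the plus strand at chr7:30183921-30184170, Cox8a on the minus strand at chr19:7217617-7217866 and Cox7a2 on the minus strand at chr9:79759854-79760103.
Cox8b: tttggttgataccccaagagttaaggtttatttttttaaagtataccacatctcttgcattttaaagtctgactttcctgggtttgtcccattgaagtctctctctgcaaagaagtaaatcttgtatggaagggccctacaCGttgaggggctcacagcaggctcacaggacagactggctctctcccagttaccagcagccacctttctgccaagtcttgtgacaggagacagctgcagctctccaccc
Cox7a1: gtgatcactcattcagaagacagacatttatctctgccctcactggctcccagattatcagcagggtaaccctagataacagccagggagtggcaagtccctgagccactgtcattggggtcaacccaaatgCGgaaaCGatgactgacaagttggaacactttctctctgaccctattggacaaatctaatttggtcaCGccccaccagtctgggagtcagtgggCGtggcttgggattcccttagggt
Cox8a: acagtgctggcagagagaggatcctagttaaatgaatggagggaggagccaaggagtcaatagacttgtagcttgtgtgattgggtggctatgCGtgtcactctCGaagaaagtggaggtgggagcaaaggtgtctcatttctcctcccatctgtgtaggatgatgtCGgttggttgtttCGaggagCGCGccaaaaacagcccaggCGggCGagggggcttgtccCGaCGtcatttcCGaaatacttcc
Cox7a2: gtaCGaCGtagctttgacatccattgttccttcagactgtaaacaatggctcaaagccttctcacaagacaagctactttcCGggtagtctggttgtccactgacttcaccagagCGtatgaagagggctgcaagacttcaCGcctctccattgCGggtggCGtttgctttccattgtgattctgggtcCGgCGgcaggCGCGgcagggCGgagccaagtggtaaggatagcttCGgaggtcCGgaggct

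The heart-type promoters of Cox8b and Cox7a1 held 1 and 4 CGs, fewer than the ubiquitous ones with 11 in Cox8a, 14 in Cox7a2 and 26 in Cox6a1. No promoter was found for Cox6a2, the remaining heart-type gene. Among the 32851 promoters of the table, cut to the same 250 bases, the median was 6. As few CGs as in Cox8b were held by 18.8% of them, as few as in Cox7a1 by 44.4%, as few as in Cox8a by 66.5%, as few as in Cox7a2 by 72.7% and as few as in Cox6a1 by 91.4%. The G and C content ran in the same order within pairs, with 47.2% in Cox8b against 52.8% in Cox8a and 51.2% in Cox7a1 against 54.8% in Cox7a2. In addition, 6 short motifs were searched on both strands. The E-box CANNTG, bound by basic helix-loop-helix factors, occurred once each in Cox7a1, Cox7a2, Cox8a and Cox8b, and in 66.2% of all promoters. CGCANGCG, the core bound by NRF1, a regulator of respiratory chain genes, matched at 2 places in Cox6a1 and in none of the other 4, and 6.8% of all promoters hold it. CCGGAAG, bound by GABP, matched once in Cox6a1, beside 6.9% of all promoters. CTANNNNTAG (MEF2; 3.2% of all promoters), AAGGTCA (estrogen-related receptors; 4.1%) and TATAAA (12.4%) had no match in the 5 windows, which says only that these letters are absent there. Matches of different motifs overlapped in none of the 5 windows. These are descriptions of sequence, and no binding or methylation was measured.

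The brightness of the arrays' own controls moved with stage and also with the member genes, and is therefore given before the results. The mean of the 18 hybridization control probe sets, which read bacterial and phage transcripts added to each sample before hybridization, was 9.68 to 10.35 at E10.5, 10.97 to 11.39 at E19.5, 12.03 to 12.43 in young adults and 11.16 to 11.56 in old adults. The Gapdh control, given as its 3′ minus its 5′ probe set, was 2.19 to 3.95 at E10.5, 3.72 to 4.13 at E19.5, 1.39 to 2.25 in young and 2.06 to 2.63 in old adults. Within stages, the array with the highest hybridization control level was also the one with the lowest level of Cox7a2 in 11 of 12 stages, of Cox4i1, Cox6a1 and Cox8a in 10 each, and of Cox7a1 and Cox8b in 9 each. For Cox6a2 this held in 5 stages and for Cox4i2 in 2. The mixed array of E17.5 stood apart from its stage in its Gapdh difference, 2.76 against 4.32 on the female and 4.49 on the male array. Its control level was 12.01, against 10.95 on the female and 11.60 on the male array. The changes of the members were also fitted with the control level as a term, an alternative chosen after the values were seen. Stage and control level move together, so that their parts in a change between stages cannot be told apart.

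**Figure D1:**
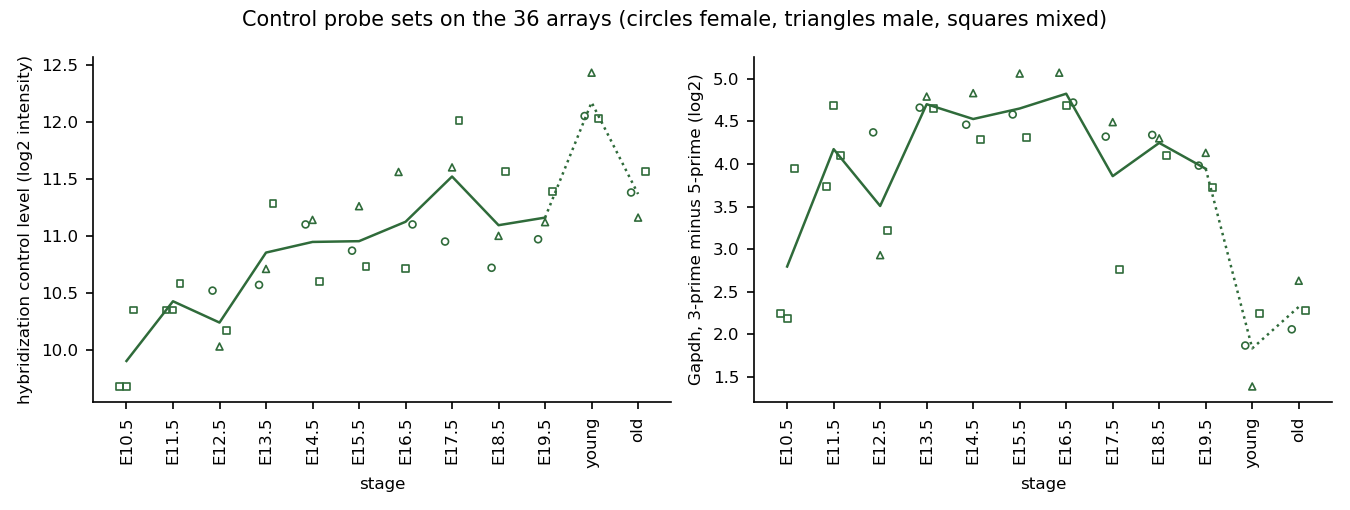
Control probe sets on the 36 arrays by stage, 1 point per array, with lines through the stage means (dotted after E19.5, where the time axis is not to scale). The left panel gives the mean log2 intensity of the 18 hybridization control probe sets, highest in young adults (12.03 to 12.43), and the right panel the Gapdh 3′ minus 5′ difference, lowest in young adults (1.39 to 2.25).

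The question of the comparisons was when and how far each isoform changed on the way from the embryonic to the adult heart. Between E10.5 and E19.5, 4 member probe sets rose (both of Cox6a2, and those of Cox7a1 and Cox8b) and 3 fell (2 of Cox8a and 1 of Cox6a1) at a Benjamini-Hochberg adjusted p under 0.05 in limma. Over the whole array 23.7% of probe sets rose and 21.8% fell in this comparison, and 23.3% and 39.0% among the 20685 expressed ones, so the counts of members were near the background. By the study's stricter limits (adjusted p under 1e-05, a log2 change over 2 and expression in at least 1 stage), Cox6a2 and Cox8b passed upward, beside 0.698% of all probe sets. Between E19.5 and young adult, 2 rose (Cox4i2 and the main probe set of Cox6a2) and 1 fell (Cox6a1), against 13.6% and 15.5% of all probe sets and 16.5% and 29.3% of the expressed ones. By the stricter limits none passed, beside 0.634% upward over the array. In this interval 5 of the 13 had an unadjusted p under 0.05, a limit at which the array's share was not counted. From E10.5 to young adult, 5 rose (both of Cox6a2, Cox7a1, Cox8b and Cox4i2) and 4 fell (both of Cox6a1 and 2 of Cox8a), against 35.9% and 27.1%, and Cox6a2, Cox7a1 and Cox8b passed the stricter limits upward, which 2.10% of all probe sets did. Because hearts were taken whole, fewer cells of a type and less RNA per cell cannot be told apart in any of these values.

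Cox8b, the muscle form of the smallest subunit, had the widest range of the 8 genes. Its level at E10.5 was 5.81, 5.68 and 4.85 on the 3 arrays, close to the limit of expression. The mean then went up at each of the 9 daily steps, through 6.76 ± 0.58 (SD, n = 3) at E13.5, 7.94 ± 0.28 at E14.5 and 8.97 ± 0.70 at E16.5. At E19.5 it was 10.39 on the female, 10.29 on the male and 10.04 on the mixed array, all above the highest E10.5 array by more than 4 log2 units. The rise of 4.79 ± 0.41 (SE) log2, or 27.7-fold, had an adjusted p of 1.1e-10, and with the control level as a term it was 6.27. In young adults the arrays read 11.00, 11.03 and 11.27, and in old adults 11.05, 11.66 and 10.85. Young adult arrays lay above those of E19.5 without overlap, yet the change of 0.86 ± 0.41 did not pass (adjusted p = 0.12), and with the control level as a term it was 2.05 and passed (adjusted p = 7.1e-05). The spread was widest at E17.5, where the female and male arrays read 10.27 and 10.52 and the mixed array 8.30.

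Cox7a1, the muscle form of the subunit that lies at the dimer contact of the enzyme and takes part in its supramolecular arrangement, was already clearly expressed at the start. It read 8.61, 8.54 and 8.08 at E10.5 and stayed near this level to E13.5, with a mean of 7.95 ± 0.67. It was 8.96 ± 0.17 at E14.5, 9.38 ± 0.27 at E15.5 and 10.58 ± 0.33 at E18.5. At E19.5 the female, male and mixed arrays read 10.51, 10.10 and 10.20, again with no overlap with E10.5. The rise over the embryonic days was 1.86 ± 0.38 log2, or 3.63-fold (adjusted p = 2.0e-04), and 3.20 with the control level as a term. Young adult arrays at 10.70, 10.64 and 11.20 and old adult arrays at 10.69, 11.12 and 10.22 overlapped with each other. The change from E19.5 to young adult was 0.57 ± 0.38 (adjusted p = 0.28), and 1.65 (adjusted p = 4.0e-04) with the control level as a term. At E17.5 the mixed array, at 8.64, again lay far below the female and male arrays at 10.56 and 10.82.

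Cox6a2, the muscle form of a regulatory subunit at which adenine nucleotides act, was measured with the smallest spread among the 3 heart-type genes. The main probe set 1457633_x_at read 8.89, 8.91 and 8.95 at E10.5, and no array of the first 4 stages exceeded 9.37. It then rose to 9.86 ± 0.07 at E15.5, 10.56 ± 0.27 at E17.5 and 11.20 ± 0.28 at E19.5, where the arrays read 11.39, 11.33 and 10.87. Young adults followed at 12.21, 12.23 and 12.39, without overlap with E19.5, and old adults at 11.96, 12.12 and 11.88. The embryonic rise was 2.28 ± 0.14 log2, or 4.86-fold (adjusted p = 2.6e-14), and the rise after E19.5 was 1.08 ± 0.14, or 2.11-fold (adjusted p = 2.4e-07). Both passed also with the control level as a term, at 2.60 and 1.33. The other probe set, 1417607_at, rose by 1.22 ± 0.18 before E19.5 (adjusted p = 2.3e-06) and changed by 0.37 ± 0.18 after it (adjusted p = 0.12). These changes were 1.85 and 0.88 with the control level as a term, and the later one passed too (adjusted p = 1.2e-04). The ending x in the name of the main probe set marks probes that may also match other transcripts, so its level is uncertain to that degree.

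**Figure D2:**
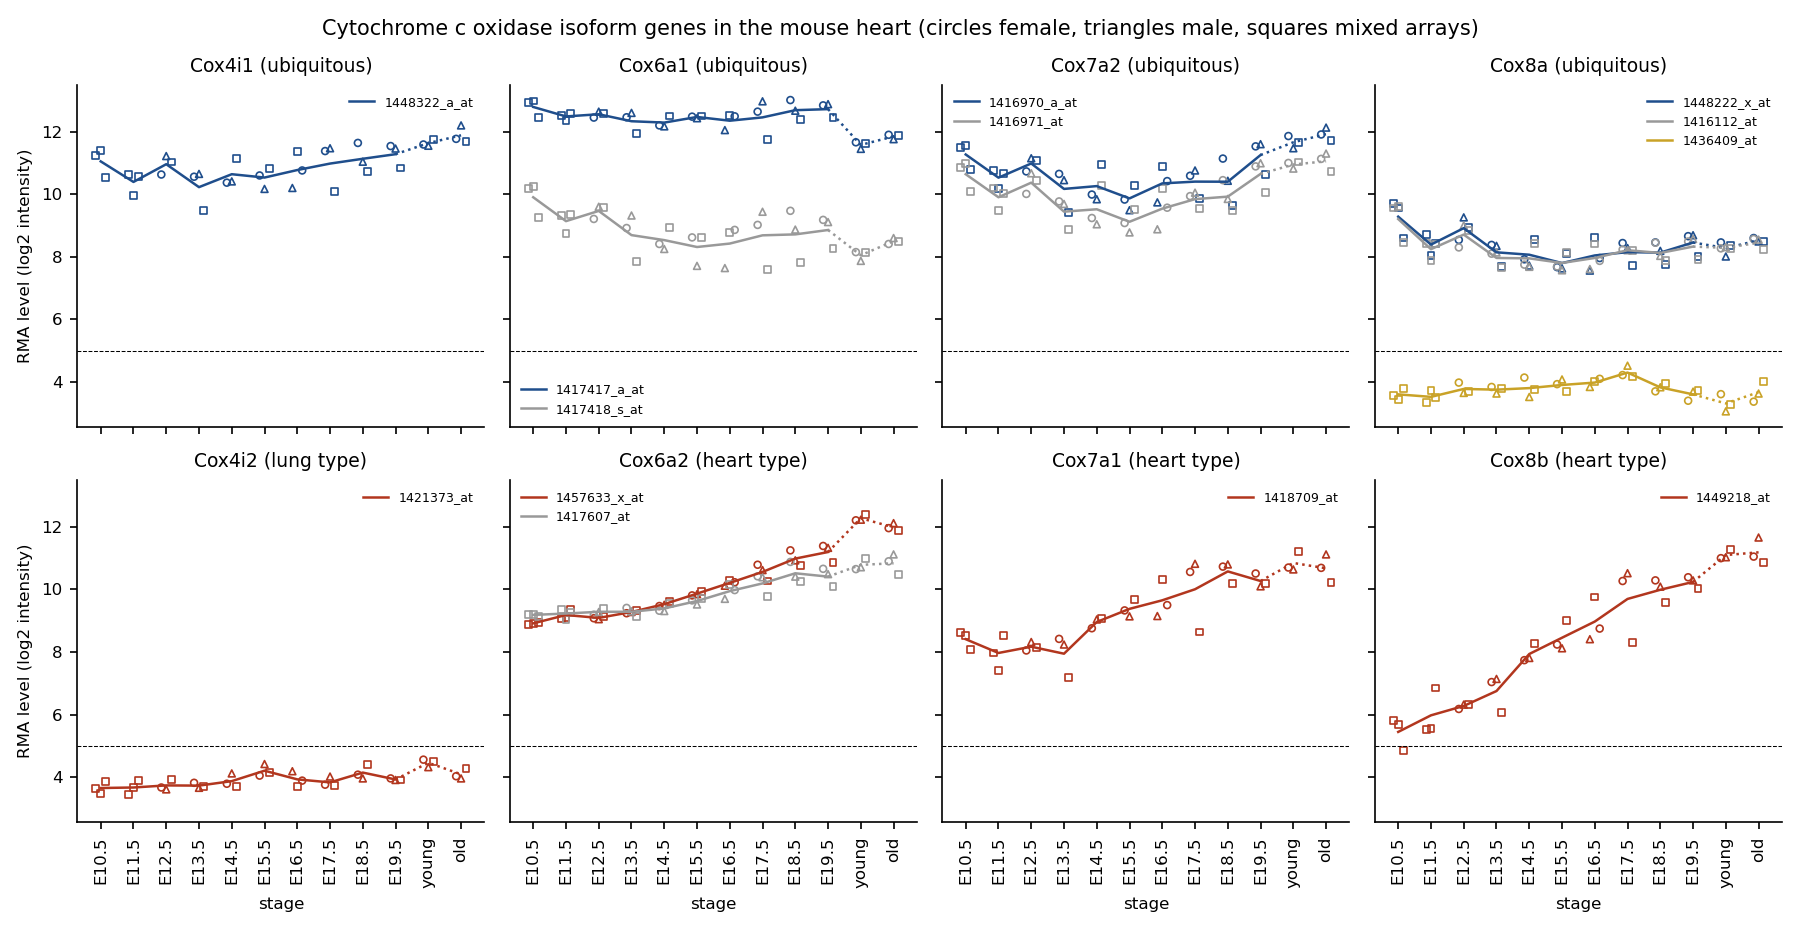
RMA log2 levels of the 8 genes by stage, ubiquitous isoforms above and heart-type isoforms with Cox4i2 below, 1 point per array and lines through the means of 3 arrays (dotted after E19.5). Every probe set is drawn, the main one in colour, and the dashed line marks the expression limit of 5. From E10.5 to young adult the stage mean of Cox8b goes from 5.45 to 11.10, that of Cox6a2 from 8.92 to 12.27 and that of Cox7a1 from 8.41 to 10.85, while Cox4i2 stays below the dashed line.

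The ubiquitous isoforms did not share 1 course. Cox8a, the general form of the smallest subunit, was highest at E10.5, where its main probe set 1448222_x_at read 9.69, 9.56 and 8.60. It was lowest at E15.5 with 7.67, 7.63 and 8.10. Both stages were picked as the highest and lowest of these means, and the change between them was not tested. At E19.5 the main probe set read 8.66, 8.69 and 8.02, which overlaps with E10.5, and in young adults 8.46, 8.01 and 8.37. The log2 change to E19.5 was −0.83 ± 0.29 (adjusted p = 0.020), and −0.88 ± 0.26 (adjusted p = 0.0066) in the second probe set, 1416112_at. Both falls missed the threshold without the E10.5 mixed 1, the E10.5 mixed 2 or the E19.5 mixed array, with log2 changes of −0.63, −0.69 and −0.61 for the main probe set and −0.71, −0.68 and −0.68 for the second. With the control level as a term the change turned to 0.43 (adjusted p = 0.20). The third probe set, 1436409_at, stayed at 3.31 to 4.30 in stage mean and has no reading above the expression limit.

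Cox6a1, the general form of the nucleotide-regulated subunit, was the brightest member. Its main probe set fell after E19.5 with and without the control level as a term, and changed before E19.5 only with that term. The main probe set 1417417_a_at read 12.94, 12.98 and 12.45 at E10.5 and 12.84, 12.88 and 12.44 at E19.5, a change of −0.07 ± 0.21 (adjusted p = 0.80). With the control level as a term this change was 0.70 and passed as a rise (adjusted p = 0.019). In young adults the main probe set read 11.66, 11.45 and 11.62, below every embryonic array. This fall of 2.21-fold (log2 change −1.14 ± 0.21) had an adjusted p of 9.9e-05, and with the control level as a term it was −0.53 and still passed (adjusted p = 0.039). Old adult arrays at 11.90, 11.76 and 11.88 lay above those of young adults and below those of E19.5. The second probe set, 1417418_s_at, timed the fall otherwise, with −1.04 ± 0.42 before E19.5 (adjusted p = 0.040) and −0.81 ± 0.42 after it (adjusted p = 0.15). With the control level as a term both changes of 1417418_s_at turned, to 0.70 and 0.59 (adjusted p of 0.18 and 0.16). The ending s in its name marks probes shared by several transcripts.

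Cox7a2 and Cox4i1 gave no change that passed between the ends of the series. Cox7a2, the general counterpart of Cox7a1, read 11.48, 11.55 and 10.78 at E10.5, 9.83, 9.49 and 10.28 at E15.5, 11.53, 11.60 and 10.63 at E19.5, and 11.86, 11.47 and 11.65 in young adults. Its course was lowest in the middle, at E15.5, a stage picked from these values and not tested against E10.5. The change of Cox7a2 was −0.01 ± 0.36 before E19.5 (95% interval −0.74 to 0.71) and 0.40 ± 0.36 after it (−0.32 to 1.13). Its second probe set gave 0.01 and 0.30. Cox4i1, a large subunit needed for assembly in most tissues, read 11.23, 11.39 and 10.53 at E10.5, 11.54, 11.46 and 10.84 at E19.5 and 11.59, 11.55 and 11.76 in young adults. Its changes were 0.23 ± 0.34 (adjusted p = 0.59, 95% interval −0.47 to 0.93) and 0.35 ± 0.34 (adjusted p = 0.48, −0.34 to 1.05). With the control level as a term the changes passed in both intervals, at 1.55 and 1.66 for Cox7a2 and at 1.73 and 1.56 for Cox4i1 (the adjusted p being 5.3e-05 at most).

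Cox4i2 stayed at 3.46 to 4.56 on all 36 arrays. The arrays read 3.63, 3.47 and 3.86 at E10.5, 3.96, 3.91 and 3.91 at E19.5, 4.56, 4.32 and 4.50 in young adults and 4.03, 3.96 and 4.29 in old adults. The rise from E19.5 to young adult, 0.53 ± 0.15 log2 or 1.45-fold, passed (adjusted p = 0.0078) and did not with the control level as a term (0.26, adjusted p = 0.27). All these levels lie below the expression limit. Among 5 measured factors known to act on Cox4i2 or in the response to hypoxia, Hif1a fell by E19.5 and again by young adult (log2 changes of −1.43 and −1.45, adjusted p of 2.0e-06 and 2.3e-06) and Epas1, the hypoxia factor of endothelium, rose in both (1.45 and 1.78, adjusted p of 7.9e-04 and 1.1e-04). Cxxc5 fell in the first interval (−0.44, adjusted p = 0.0070), and Rbpj and Lonp1 passed in neither. Of the 7 pericyte markers, the vessel cells in which Cox4i2 is known, 5 rose before E19.5, with Abcc9 (−0.19) and Cspg4 (0.01) not passing. After E19.5, Rgs5 and Higd1b rose (0.99 and 1.53), Abcc9, Cspg4 and Pdgfrb fell (−1.10, −0.76 and −0.59) and the other 2 did not pass. The mean level of the list was 5.91 to 6.09 at E10.5, then 7.50 to 7.80 at E19.5 and 7.60 to 7.91 in young adults. Their part in the values of Cox4i2 was not tested.

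The isoforms of a pair were then set against each other on the same array, heart-type minus ubiquitous. Such a difference removes whatever shifts both probe sets of an array alike, but it was still highest on the array with the highest control level in 9 of 12 stages for Cox6a, 7 for Cox7a, 6 for Cox8 and 10 for Cox4. Its height is not read, since probe sets differ in brightness for reasons of design, and only its change between stages is. The Cox8 difference (Cox8b minus Cox8a) read −3.88, −3.88 and −3.75 at E10.5 and 1.72, 1.60 and 2.02 at E19.5, a change of 5.62 ± 0.30 log2, or 49.2-fold in the ratio (adjusted p = 2.1e-15). It read 2.53, 3.02 and 2.90 in young adults, a further 1.03 ± 0.30 (adjusted p = 0.0093), with no overlap between any of these 3 stages. Of the whole change from E10.5 to young adult, 84.5% fell before E19.5, and the midpoint was passed at E14.5.

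The Cox6a difference (Cox6a2 minus Cox6a1) moved in both intervals. It read −4.05, −4.08 and −3.50 at E10.5, −1.45, −1.55 and −1.57 at E19.5 and 0.55, 0.78 and 0.76 in young adults. The change was 2.35 ± 0.18 over the embryonic days (5.1-fold, adjusted p = 6.8e-12) and 2.22 ± 0.18 from E19.5 to young adult (4.65-fold, adjusted p = 2.7e-11). For these main probe sets the share before E19.5 was 51.4%, and the midpoint was passed only at E19.5. In the later interval both main probe sets contributed, Cox6a2 with 1.08 upward and Cox6a1 with −1.14. With the control level as a term these were 1.33 and −0.53. The other probe sets of Cox6a2 and Cox6a1 changed by 0.37 and −0.81 in limma without passing (adjusted p of 0.12 and 0.15).

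The Cox7a difference (Cox7a1 minus Cox7a2) rose before E19.5, with no later change that passed. It read −2.87, −3.01 and −2.70 at E10.5, and −0.50, −0.34 and −0.60 at E15.5. At E18.5 it read −0.41, 0.36 and 0.57, and at E19.5 −1.02, −1.50 and −0.43, and young adults at −1.16, −0.83 and −0.45 overlapped with E19.5. The change to E19.5 was 1.87 ± 0.29 (3.67-fold, adjusted p = 4.5e-06), and after it 0.17 ± 0.29 (adjusted p = 0.71, 95% interval −0.42 to 0.76). Of the whole change, 91.6% fell before E19.5. The Cox4 difference (Cox4i2 minus Cox4i1) changed by 0.04 ± 0.40 (−0.78 to 0.86) and 0.18 ± 0.40 (−0.64 to 1.00), with Cox4i2 below the expression limit on every array. With the control level as a term the Cox4i2 minus Cox4i1 difference fell in both intervals, with changes of −1.79 and −1.29 (adjusted p of 1.2e-05 and 1.4e-04).

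The changes of the 3 muscle pairs were also fitted with the array controls. With the control level as a term the embryonic changes were 1.90 for the Cox6a, 1.65 for the Cox7a and 5.85 for the Cox8 difference, and the later ones 1.86, −0.01 and 1.22, each on the same side of the threshold as without it. With the Gapdh difference as a term they were 2.30, 1.51 and 5.20, then 2.32, 0.84 and 1.81, again on the same sides. Pooling stages gave the same directions for 5 of these 6 values in an exact two-sided permutation test. From the 9 arrays of E10.5 to E12.5 to the 9 of the last 3 embryonic days the differences rose by 1.84, 2.34 and 4.69, each with an exact permutation p = 4.1e-05, the smallest that this test can give. From the latter 9 to the 6 adult arrays the Cox6a and Cox8 differences rose by 2.12 and 1.01 (exact permutation p = 4.0e-04 each, again the smallest), and the Cox7a difference changed by −0.63 (exact permutation p = 0.069).

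**Figure D3:**
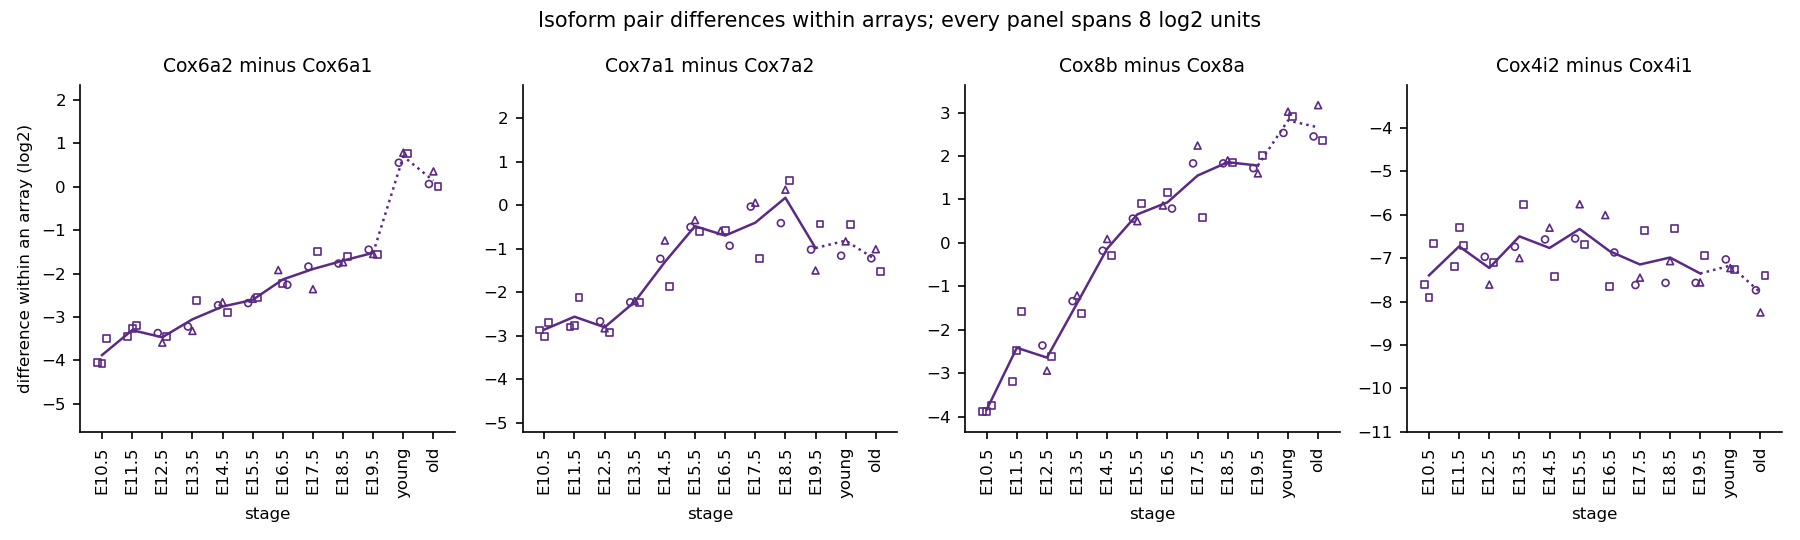
Within-array log2 differences of the 4 isoform pairs by stage, 1 point per array (circles female, triangles male, squares mixed) with lines through the stage means, dotted after E19.5. Each panel spans 8 log2 units around its own centre, so that slopes can be compared and heights cannot. The Cox8 difference climbs by 5.62 before E19.5, the Cox6a difference by 2.35 before and 2.22 after it, and the Cox7a difference peaks at E18.5.

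Whether the pairs moved by different amounts was tested on the difference of their changes, a comparison chosen after the values were seen. From E19.5 to young adult the Cox6a pair moved further than the Cox7a pair by 2.05 ± 0.33 (adjusted p = 1.1e-05) and further than the Cox8 pair by 1.18 ± 0.36 (adjusted p = 0.012). The Cox8 pair moved further than the Cox7a pair by 0.86 ± 0.24 (adjusted p = 0.0054). Before E19.5 the Cox8 pair exceeded the Cox7a pair by 3.75 ± 0.24 (adjusted p = 8.1e-14) and the Cox6a pair by 3.27, written as Cox6a minus Cox8 −3.27 ± 0.36 (adjusted p = 1.4e-08). The Cox6a and Cox7a pairs differed by 0.48 ± 0.33 in this interval (adjusted p = 0.23). All these comparisons used the main probe sets without a control term. After E19.5 the other probe sets of Cox6a2 and Cox6a1 changed by only 0.37 and −0.81, against 1.08 and −1.14 for the main ones. With the control level as a term the later change was 1.86 for the Cox6a and 1.22 for the Cox8 difference. Whether the pairs differ under these choices was not tested.

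**Figure D4:**
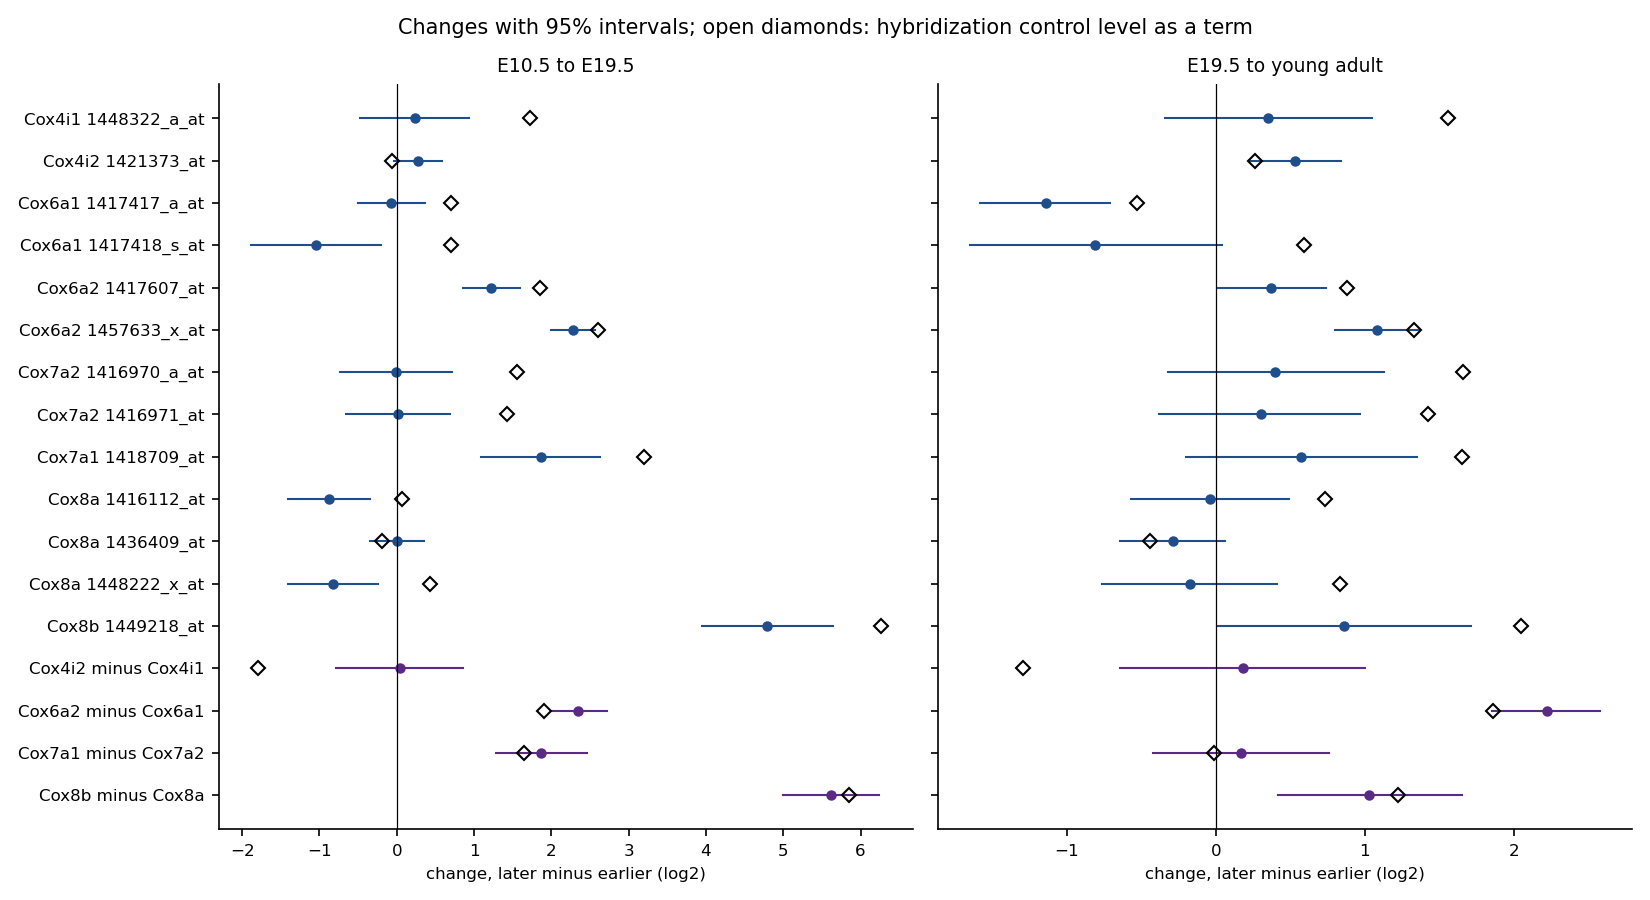
Log2 changes of the 13 probe sets (blue) and 4 pair differences (purple) from E10.5 to E19.5 and from E19.5 to young adult, with 95% intervals from the limma model of all 36 arrays. Open diamonds give the same change with the hybridization control level as a term. The diamonds lie to the right of the points for all expressed probe sets, heart-type and ubiquitous, and for the Cox8 difference. Before E19.5 they are at 1.73 against 0.23 for Cox4i1 and at 6.27 against 4.79 for Cox8b. To the left they lie for the Cox4, Cox6a and Cox7a differences and for the probe sets below the expression limit.

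Day by day, single steps were mostly too small to pass. Of the 13 probe sets only Cox8a 1416112_at passed at any of the 9 daily steps, with −0.97 from E10.5 to E11.5 (adjusted p = 0.040), where 4 had an unadjusted p under 0.05 and 2.53% of all probe sets passed. From E12.5 to E13.5 none of the 13 passed (5 unadjusted), beside 1.25% of the array, and from E18.5 to E19.5 none (2 unadjusted), beside 1.33%. None passed in the remaining steps either. From E11.5 to E12.5 0.0976% of the array passed and 0 members had an unadjusted p under 0.05. In the 5 steps from E13.5 to E18.5, 0.0599%, 0.0377%, 0.0111%, 0.0133% and 0% of the array passed in turn, and 2, 2, 1, 1 and 3 members had an unadjusted p under 0.05. The shares of the array are at an adjusted p under 0.05, and those at the unadjusted limit were not counted. The pair differences showed 3 steps. The Cox8 difference rose by 1.42 ± 0.30 from E10.5 to E11.5 (adjusted p = 0.010) and by 1.25 ± 0.30 from E12.5 to E13.5 (adjusted p = 0.036). The Cox7a difference fell from E18.5 to E19.5 (−1.16 ± 0.29, adjusted p = 0.036). In this last step Cox7a2 went from 10.40 ± 0.75 to 11.25 ± 0.54 and Cox7a1 from 10.58 ± 0.33 to 10.27 ± 0.22, and neither passed alone.

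No member passed for age or sex. From young to old adult none of the 13 probe sets passed in limma, beside 6.96% of the array that did. At an unadjusted p under 0.05 were 3 of the 13 (Cox4i2, the main probe set of Cox6a2 and Cox8a 1436409_at). When the control level was a term 2 of them passed, the main probe set of Cox6a2 (−0.49) and Cox7a2 1416971_at (−0.79), each with an adjusted p of 0.038. Among the pairs the nearest result was the Cox6a difference, which read 0.55, 0.78 and 0.76 in young and 0.06, 0.35 and 0.00 in old adults with no overlap. Its change of −0.56 ± 0.18 had an adjusted p of 0.053, and it was 0.031 without the E17.5 mixed array, 0.042 without the young adult female and 0.049 without the old adult male array, whereas it was 0.43 with the control level as a term (change −0.28) and 0.27 on the 6 adult arrays with sex as a block. Of the hypoxia factors above, Hif1a and Lonp1 rose in old adults (0.95 and 0.70, adjusted p of 0.0054 and 0.020). These calls come from the fit of all stages, in which 3138 probe sets of the array passed for age. Fitted on the adult arrays alone, only 6 probe sets of the array passed, and 5 with sex as a block. Whether Hif1a and Lonp1 pass in those fits or with the control level as a term was not examined. Between male and female arrays of 9 stages, from E13.5 on, no member passed, beside 0.0488% of the array that did. The array's share at an unadjusted p under 0.05 was not counted for age or sex. For sex, 2 of the 13 were under that limit. These 2 were the main probe sets of Cox8a (male minus female −0.18 ± 0.08, adjusted p = 0.60, male higher in 1 of 9 stages) and of Cox7a2 (−0.22 ± 0.10, adjusted p = 0.63, male higher in 3 of 9).

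Over the 12 stage means, the 3 heart-type genes ran together, with Pearson correlations of 0.94 between Cox6a2 and Cox7a1, 0.96 between Cox6a2 and Cox8b and 0.97 between Cox7a1 and Cox8b. Cox4i1 and Cox7a2 ran together at 0.86, while the ubiquitous and heart-type isoforms of the pairs gave −0.62 for Cox6a, 0.40 for Cox7a and −0.43 for Cox8. These are descriptions over 12 means that share arrays, age and control level. Among 18437 expressed probe sets with a symbol outside the pairs, the stage course of Cox6a2 was most like those of Itga7 and Lims2 (0.994 each), which serve attachment of muscle cells to the matrix, and Coq8a (0.992), a kinase-like protein of coenzyme Q synthesis. That of Cox7a1 was most like Gm11716, Ablim3 and Dhrs7c (0.981 each), the last a dehydrogenase of the sarcoplasmic reticulum in muscle. That of Cox8b was most like Hhatl (0.994), Clec1a (0.993) and Gimap8 (0.992), of which the last 2 are known from endothelium and immune cells. For Cox4i2, R3hcc1l led with only 0.950, followed by AI854703 (0.941) and 6330409D20Rik (0.929).

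The remaining complex IV genes did not move as 1 group. Of 12 measured other subunits and partners (13 listed), 5 rose and 7 did not pass by E19.5, beside 23.7% of all probe sets that rose. The median log2 change was 0.33 beside 0.15 over all and −0.21 over expressed probe sets. These were Ndufa4l2 (0.96, adjusted p = 3.5e-05), a paralog of the subunit Ndufa4 that stayed below the expression limit at these ends, Cox8c (0.70) and Cyct (0.39, at stage means of 2.67 and 3.06), both known from testis, Cox6b1 (0.63, adjusted p = 8.2e-05), which faces cytochrome c, and Cox5b (0.61), a zinc-binding subunit. After E19.5, 4 rose and 1 fell, beside 13.6% and 15.5% of all probe sets, with a median of 0.11 beside 0.04 and −0.13. Ndufa4, a late-added subunit, rose by 1.54 ± 0.35 (adjusted p = 9.9e-04), from 8.45 to 9.65 on the E19.5 arrays to 10.65 to 10.83 in young adults. Cox5a, a core-binding subunit, rose by 1.12 (adjusted p = 0.0020), from 10.31 to 11.22 to 11.94 to 12.01, and Cox7a2l, which joins respiratory complexes, by 0.83 (adjusted p = 0.0023). Cox6b1 fell (−0.70, adjusted p = 2.8e-05). Cox6b2 also passed upward (0.74) at levels near the expression limit.

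Assembly and synthesis factors, which insert copper and haem or supply the mitochondrial subunits, went down and up in different numbers. Of 20 measured (23 listed), 2 rose and 10 fell before E19.5, beside 23.7% and 21.8% of all and 23.3% and 39.0% of expressed probe sets. The median was −0.42 beside 0.15 over all and −0.21 over expressed ones. The 3 largest falls were those of Lrpprc (−1.82, adjusted p = 0.0020), which stabilizes mitochondrial messenger RNA, Sco1 (−1.62, adjusted p = 6.7e-05), a copper carrier, and Cox16 (−1.54, adjusted p = 9.0e-05). The 2 that rose were Cmc2 (0.73) and Coa4 (0.44, at stage means of 4.09 and 4.52, below the expression limit). After E19.5, 5 rose and 4 fell, beside 13.6% and 15.5% of all and 16.5% and 29.3% of expressed probe sets, with a median of −0.19 beside 0.04 and −0.13. Coa5 rose by 1.12 (adjusted p = 0.0032), Surf1 by 0.91 (adjusted p = 0.0044) and Cox16 by 0.87 (adjusted p = 0.024), and Cox15 (−1.62, adjusted p = 1.4e-07), which makes haem A, Cox20 (−0.89, adjusted p = 7.2e-05), Pet100 (−0.69, adjusted p = 0.038) and Cox17 (−0.67, adjusted p = 0.0065) fell. Sco2 (0.74, with a stage mean of 4.74 in young adults) and Cmc2 (0.38) were the other 2 that rose. From young to old adult none of the genes of these 2 lists passed in limma (unadjusted p under 0.05 for 0 of the 12 subunits and partners and 2 of the 20 factors).

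**Figure D5:**
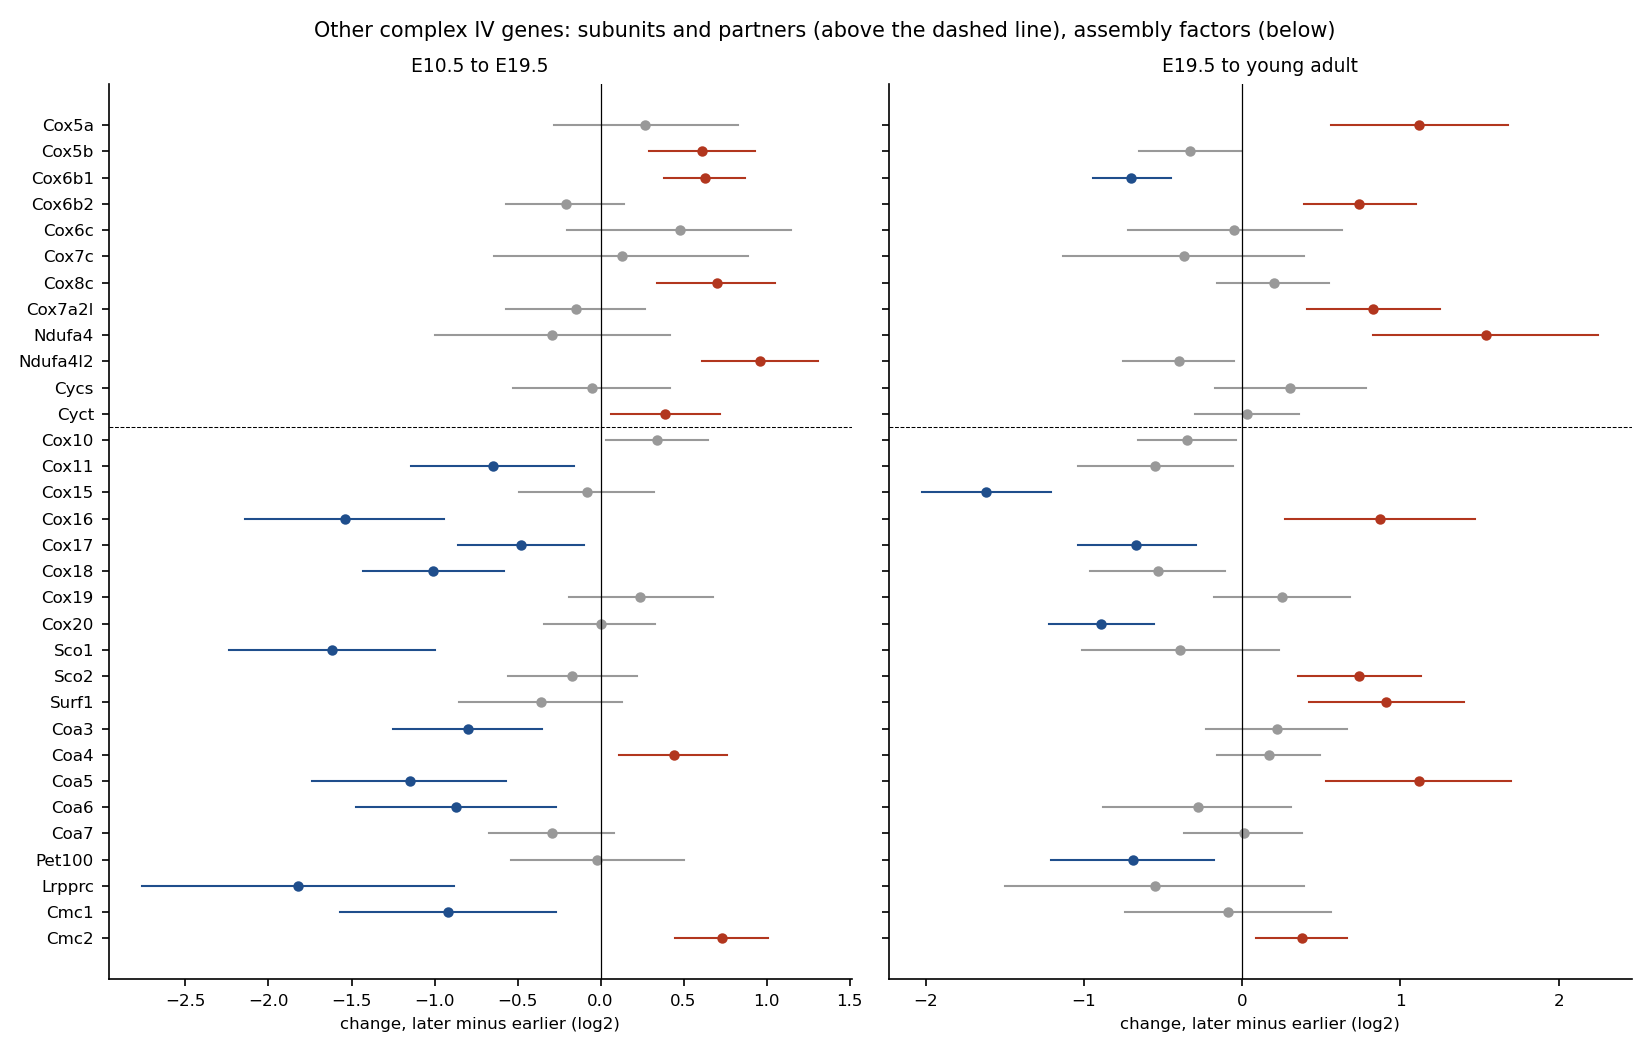
Log2 changes of the other measured complex IV genes with 95% intervals, 1 probe set per gene, from E10.5 to E19.5 and from E19.5 to young adult. Red marks genes that rose, blue those that fell at an adjusted p under 0.05 and grey the rest. Below the dashed line, 10 of 20 assembly and synthesis factors fell before E19.5, and above it 5 of 12 subunits and partners rose.

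Muscle-type isoforms are also used in skeletal muscle and brown fat, so markers of these tissues were read beside the heart-type genes. The 8 skeletal muscle markers had mean levels of 3.92 to 4.20 at E10.5, then 3.54 to 3.64 at E19.5 and 3.63 to 4.07 in young adults, with the adult myosins Myh1, Myh2 and Myh4 below 5 at every stage. Of the 2 with a stage mean above 5, Tnni2 fell by E19.5 (−2.42, adjusted p = 6.5e-07) and Mylpf did too (−2.37, adjusted p = 6.8e-11). Mylpf rose again by young adult (0.76, adjusted p = 0.0040). The 4 brown adipocyte markers had mean levels of 3.56 to 3.78 at E10.5, then 4.27 to 4.62 at E19.5 and 3.93 to 4.29 in young adults. Ucp1, which defines brown fat, stayed at stage means of 2.36 to 3.05, while Cidea rose by E19.5 (1.77, adjusted p = 1.9e-08) to a stage mean of 4.68 and was at 5.04 in young adults. Elovl3 had stage means of 2.28 at E10.5, then 2.60 at E19.5 and 2.40 in young adults, while Prdm16 rose by E19.5 from 7.14 to 7.71 and then fell to 6.22 (changes of 0.57 and −1.48). The mean of the cardiomyocyte list was 12.02 to 12.23 at E10.5, then 11.93 to 12.27 at E19.5 and 11.65 to 11.67 in young adults. Its members went both ways by E19.5, with rises of Tnni3 (1.58), Ttn (0.68), Ryr2 (0.63) and Tnnt2 (0.52) and falls of Myl7 (−2.67) and Actc1 (−1.05), and 4 of the 8 fell from E19.5 to young adult. Of the erythroid markers reported here, Hbb-y (−10.13) and Hba-x (−7.17) fell from E10.5 to E19.5, whereas Hba-a1 (0.41) and Alas2 (−0.25) did not pass. The mean of the 4 leukocyte markers went from 4.87 to 5.07 at E19.5 to 6.80 to 7.15 in young adults, and that of the 4 endothelial markers from 5.96 to 6.72 to 6.66 to 6.96 over the same interval, where only Pecam1 of the 4 rose (1.5). The list of 5 fibroblast markers had a mean of 7.55 to 7.83 on E10.5 arrays. This mean was 9.38 to 9.71 on those of E19.5 and 9.46 to 10.19 on young adult ones, but its members moved in opposite directions. Before E19.5, Col1a1 (3.17), Col3a1 (1.41), Dcn (3.47) and Lum (2.26) rose, whereas Pdgfra (−0.92) fell. Afterwards Dcn (1.98) and Lum (3.39) rose by young adult, Col1a1 (−3.33) and Col3a1 (−1.15) fell and Pdgfra (−0.08) did not pass. The mean of the 4 adipocyte markers was 2.90 to 3.17 on E19.5 arrays and 3.58 to 4.82 on young adult ones. That of the 3 lung markers was 3.82 to 4.81 over all arrays. The part of these cell types in the changes of the isoforms was not tested.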

How the data were processed

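Heart RNA was measured on 36 Affymetrix mouse arrays, 3 per stage. The authors made the deposited log2 values by robust multi-array average (background correction, quantile normalization and summary per probe set). The labels name Affymetrix Expression Console, RMA and Partek 6.6, and the methods name R and limma. The values were used as deposited, with the symbols of the file. No column of other samples was found (0). The precision is limited by the 3 arrays per stage.

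The 12 stage means were fitted in R 4.3.3 with limma 3.58.1 on all 36 arrays and 45101 probe sets (prior degrees of freedom 6.96), with Benjamini-Hochberg adjustment over all probe sets in each comparison. Probe sets were called changed at an adjusted p under 0.05. Pair differences were added to the table as rows and fitted alike. Male and female arrays were compared with stage as a block, leaving out E12.5 as the methods do. Fold changes are 2 to the power of the log2 change. Exact permutation tests used scipy 1.17.1. The fit was tested on simulated data.

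Each gene was read from its probe set with the highest mean. Named among other complex IV genes were the 3 largest rises and falls that passed in each interval and, chosen after their values were seen, the members of counts of 5 or fewer and Cxxc5, Lonp1 and Rbpj, and for similar courses the 3 highest correlations. Members, lists and tests were chosen with earlier results of these data known. Genes of the lists with no row by symbol (Cox7b, Cox14, Pet117, Taco1, Chchd2, Myh6, Plin1 and Scgb1a1) were not analysed here.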

Additional observations from a re-analysis of the deposited data

How the results depend on the processing

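Alternatives were another quantile normalization, centring on expressed probe sets, fewer probe sets or arrays, sex, title prefix or an array control as a term, other moderation, other probe sets of a pair, pooled stages and leaving out arrays. The title prefix, the word heart, was absent through E15.5 and present from E17.5 on. At E16.5 only the female array had it. The prefix term therefore rests on the 3 arrays of E16.5, and across the embryonic days prefix and stage cannot be told apart. Control terms and the omission of the E17.5 mixed array were chosen after seeing the data. The embryonic rises of the Cox6a, Cox7a and Cox8 differences kept their direction and side of the threshold under all of them, and so did the later rise of the Cox6a difference. Precision is limited by 3 arrays per stage and, for Cox4i2, by signal near background. Sex was used as a block among adults and stage as a block between sexes. By replicate number, no paired analysis was possible because the labels number the arrays through the series and stages share no number. The cause of the shifts below was not tested.

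The Cox8 difference after E19.5 missed the threshold with probe set 1436409_at (1.15, adjusted p = 0.058). The Cox6a difference from young to old adult passed among expressed probe sets only (−0.56, adjusted p = 0.043). The Cox4 difference turned before E19.5 with quantile normalization (−0.39), with the control level (−1.79) or the Gapdh term (−0.18) and with pooled stages (−0.05), after E19.5 with the control level (−1.29) and pooled stages (−0.32), and from young to old adult with the control level (0.55). The Cox7a difference after E19.5 turned with the control level (−0.01) and pooled stages (−0.63).

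Leaving out 1 array at a time, the differences changed within these ranges. From E10.5 to E19.5 the Cox4 difference gave −0.22 to 0.41 (−0.17 without E19.5 mixed), Cox6a 2.25 to 2.54, Cox7a 1.60 to 2.13 and Cox8 5.50 to 5.71. From E19.5 to young adult they gave 0.07 to 0.39, 2.18 to 2.29, −0.09 to 0.45 and 0.93 to 1.18. From young to old adult they gave −0.82 to −0.39, −0.67 to −0.49, −0.61 to −0.26 and −0.41 to −0.01. The count of changed probe sets was 4 to 7 by E19.5, 7 being that with all arrays. It was 4 without E10.5 mixed 1, E10.5 mixed 2 or E19.5 mixed, beside 16623, 15288 and 14875 probe sets of the array. After E19.5 it was 3, from E10.5 to young adult 9 to 10 and in old adults 0. Over the whole array these last counts ran from 10576 to 12416, from 24613 to 27134 and from 1889 to 4367.

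The count by E19.5 was 4 with quantile normalization, with the title prefix or with the Gapdh term, beside 16337, 6522 and 17042 of all 45101 probe sets. By the study's limits it was 2, beside 0.698% upward over the array. After E19.5 (3) it was 5 with centring on expressed probe sets and 10 with the control level, beside 14886 and 13658 of all probe sets. It was 0 by the study's limits, beside 0.634% upward. From E10.5 to young adult (9) it was 3 by those limits, beside 2.10% upward. In old adults (0) it was 1 with quantile normalization, 1 with centring and 2 with the control level, beside 3349, 3018 and 2214 of all probe sets.

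Single probe sets turned as follows. With the control level, before E19.5, Cox4i2 gave −0.06, Cox6a1 0.70 in both probe sets, Cox7a2 1416970_a_at 1.55, Cox8a 1448222_x_at 0.43 and 1416112_at 0.07. After E19.5, Cox6a1 1417418_s_at gave 0.59 and Cox8a 0.83 and 0.73. From E10.5 to young adult, Cox6a1 gave 0.17 and 1.29 and Cox8a 1.26 and 0.80. From young to old adult, Cox4i1 gave −0.71, Cox6a1 −0.22 and −0.66, Cox6a2 1417607_at −0.35, Cox7a2 −0.73 and −0.79, Cox8a −0.56 and −0.45 and Cox8b −0.86. With quantile normalization, Cox6a1 1417417_a_at (0.03) and Cox7a2 1416970_a_at (0.23) turned before E19.5 and Cox6a2 1417607_at (−0.04) in old adults. Centring shifted arrays by −0.32 to 0.31 and turned Cox6a1 1417417_a_at (0.27), Cox7a2 1416970_a_at (0.33) and Cox8a 1436409_at (0.34) before E19.5, Cox8a 1448222_x_at (0.01) and 1416112_at (0.15) after it, Cox8a 1436409_at (0.24) from E10.5 to young adult, and Cox6a2 1417607_at (−0.09), Cox7a2 1416971_at (−0.04) and Cox8b (−0.06) in old adults. The Gapdh term turned Cox7a2 1416970_a_at before E19.5 (0.12) and Cox7a2 1416971_at (−0.23) and Cox8a 1436409_at (0.07) after it. Sex as a term turned Cox7a2 1416971_at (−0.02) and Cox8a 1436409_at (0.01), and the title prefix Cox7a2 1416971_at (−0.04), before E19.5.

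Leaving out 1 array turned probe sets within −0.03 to 0.45 (Cox4i1), −0.24 to 0.07 (Cox6a1 1417417_a_at), −0.26 to 0.30 (Cox7a2 1416970_a_at; 0.09 and 0.13 without E10.5 mixed 1 or 2), −0.27 to 0.30 (Cox7a2 1416971_at; −0.11 and −0.16 without the E19.5 female or male array) and −0.08 to 0.10 (Cox8a 1436409_at) before E19.5, −0.24 to 0.08 (Cox8a 1416112_at; 0.05 without E19.5 female) after it, and −0.09 to 0.22 (Cox6a2 1417607_at), −0.39 to 0.06 (Cox7a1), −0.02 to 0.26 (Cox7a2 1416971_at) and −0.15 to 0.25 (Cox8b) in old adults.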
